A study of Mus musculus with 4 samples.

Results

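Of the 44672 conservative CTCF peaks of mouse cerebral cortex, 210 differed by more than 2-fold from the median ratio between the study's pools of tissue, and these 210 are described here. Members were chosen by the signal values themselves. For each peak found reproducibly in both pools, the signal value of the peak paired from pool I was divided by that of the peak paired from pool J, and the log2 of the ratio was taken. The median log2 ratio over the conservative peaks was 1.09, so at a typical peak the pool I value was the higher one. Peaks more than 1 log2 unit from that median were kept, and in what follows a distance is the log2 ratio minus that median. On the pool I side lay 131 peaks (distance above 1) and on the pool J side 79 (distance below -1). They made up 0.470% of the conservative peaks tested, with 0.293% on the pool I side and 0.177% on the pool J side. Among all 133567 ranked peaks of both pools, most of which missed the reproducibility threshold, 16.4% lay that far from their own median. Because the ratio selected the members, its values are given as a description, without a test.

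Both pools were frozen left cerebral cortex of B6CASTF1/J mice, the F1 hybrid of C57BL/6J and CAST/EiJ, all adult females aged 2 months. Each pool joined 4 biosamples and was sequenced as 2 libraries, which the authors merged to 1 alignment per pool. Pool I is the submitters' biological replicate 1 and pool J their biological replicate 2, and the labels give no treatment or other difference between them. The assay was CTCF ChIP-seq with a size range of 200 to 600 bp. A pool thus gives a single signal value per peak, with no replicate error. The read depth is unknown, because peak lists hold no read counts. The chromatin came from whole tissue, and the cells of a single type cannot be separated in it.

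CTCF is a zinc finger protein that binds a long, asymmetric DNA motif at many sites across the genome, most of them shared between cell types. Together with cohesin, the ring complex that extrudes chromatin loops, it anchors loops and separates chromatin domains, and its motif orientation sets which way a loop forms. Many sites lie far from genes and others at promoters.

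A motif built without a preset sequence, from the 1000 conservative peaks of highest signal on the odd-numbered autosomes, is shown first, because the members differed among themselves in whether they held it. It is written with capitals where a single base held at least 60% of the sites. At least 1 match within 50 bp of the summit, on either strand, was found at 77 of 210 members (36.7%, 95% exact binomial interval 30.1 to 43.6) and at 31134 of 44462 other conservative peaks (70.0%). Windows of the same length at 1000 bp from the summits held a match in 0.961% of cases.
learned CTCF motif: tggCCACcAGgGGGCgctag

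The 4 windows that follow are centred on summits of pool I side members with 1 summit in their interval, among those furthest from the median. All sequences are of the C57BL/6J reference, GRCm38.p6 (mm10 coordinates), from RefSeq, and capitals mark motif matches past the score threshold. CAST/EiJ sequence was not used here. Windows over annotated untranslated exons were passed over. In the Col8a2 and Ghitm windows the middle of the match lay 9.5 and 7.5 bp from the summit, and the other 2 windows held no match past the threshold.
Cntnap1 coding exon, chr11:101181233-101181333, plus strand: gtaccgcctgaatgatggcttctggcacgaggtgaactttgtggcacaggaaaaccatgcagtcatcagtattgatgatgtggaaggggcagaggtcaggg
Lss promoter, chr10:76531418-76531518, plus strand: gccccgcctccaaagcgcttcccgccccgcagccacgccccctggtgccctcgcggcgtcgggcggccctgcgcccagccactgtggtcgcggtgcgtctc
Col8a2 intron, chr4:126304023-126304123, plus strand: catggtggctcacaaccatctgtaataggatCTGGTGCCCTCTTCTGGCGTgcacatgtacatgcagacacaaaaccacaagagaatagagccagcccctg
intergenic, nearest gene Ghitm, chr14:37950392-37950492, plus strand: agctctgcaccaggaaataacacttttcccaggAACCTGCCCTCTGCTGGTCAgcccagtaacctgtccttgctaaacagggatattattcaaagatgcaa

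The corresponding windows of the pool J side members with 1 summit held a match in 4 of 5 cases, at 8.5 to 36.5 bp from the summit.
Tmem184b intron, chr15:79380790-79380890, plus strand: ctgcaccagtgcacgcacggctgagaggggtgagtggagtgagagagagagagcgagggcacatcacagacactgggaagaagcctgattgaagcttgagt
intergenic, nearest gene Dntt, chr19:41016522-41016622, plus strand: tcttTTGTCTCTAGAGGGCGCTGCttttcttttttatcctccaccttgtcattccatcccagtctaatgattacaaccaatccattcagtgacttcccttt
Hook2 promoter, chr8:84989936-84990036, plus strand: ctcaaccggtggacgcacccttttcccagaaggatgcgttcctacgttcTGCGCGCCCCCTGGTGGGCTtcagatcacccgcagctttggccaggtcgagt
intergenic, nearest gene Ccdc9, chr7:16294895-16294995, plus strand: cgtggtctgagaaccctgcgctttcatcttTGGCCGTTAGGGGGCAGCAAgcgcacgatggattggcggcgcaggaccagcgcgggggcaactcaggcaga
Itpk1 intron, chr12:102703173-102703273, plus strand: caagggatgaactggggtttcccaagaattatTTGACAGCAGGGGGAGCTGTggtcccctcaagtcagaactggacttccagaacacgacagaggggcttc

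The next 5 sequences span both summits of intervals with 2 summits, from 40 bases before the lower summit to 40 after the higher one. Apart from the Klf7 promoter, which held no match, each held 1 match, near its lower summit. In the Sesn2, Bpifb4, Slc7a15 and Adap1 intervals the match middle was 2.5, 9.5, 26.5 and 4.5 bp from the lower summit. It was 196.5, 211.5, 172.5 and 210.5 bp from the higher summit, which is the member in each of them.
pool I side, intergenic, nearest gene Sesn2, chr4:132514897-132515176, plus strand: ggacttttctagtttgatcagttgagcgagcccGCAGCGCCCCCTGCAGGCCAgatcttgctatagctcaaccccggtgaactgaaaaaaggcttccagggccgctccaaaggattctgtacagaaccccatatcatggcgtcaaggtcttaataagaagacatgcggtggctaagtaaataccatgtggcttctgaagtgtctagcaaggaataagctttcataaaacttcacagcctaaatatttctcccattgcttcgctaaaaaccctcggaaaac
pool I side, Bpifb4 intron, chr2:153953051-153953333, plus strand: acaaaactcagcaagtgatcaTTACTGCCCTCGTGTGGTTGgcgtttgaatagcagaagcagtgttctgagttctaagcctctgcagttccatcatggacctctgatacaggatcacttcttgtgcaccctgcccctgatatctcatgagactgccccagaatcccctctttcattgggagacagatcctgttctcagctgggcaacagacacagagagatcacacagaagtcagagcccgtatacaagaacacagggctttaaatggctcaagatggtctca
pool I side, Klf7 promoter, chr1:64121853-64122133, plus strand: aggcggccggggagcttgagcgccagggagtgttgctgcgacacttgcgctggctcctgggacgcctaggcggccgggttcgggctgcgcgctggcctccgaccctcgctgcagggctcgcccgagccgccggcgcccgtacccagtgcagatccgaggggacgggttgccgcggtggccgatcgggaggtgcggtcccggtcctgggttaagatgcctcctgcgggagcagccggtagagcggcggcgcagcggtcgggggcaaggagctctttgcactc
pool J side, Slc7a15 intron, chr12:8547465-8547744, plus strand: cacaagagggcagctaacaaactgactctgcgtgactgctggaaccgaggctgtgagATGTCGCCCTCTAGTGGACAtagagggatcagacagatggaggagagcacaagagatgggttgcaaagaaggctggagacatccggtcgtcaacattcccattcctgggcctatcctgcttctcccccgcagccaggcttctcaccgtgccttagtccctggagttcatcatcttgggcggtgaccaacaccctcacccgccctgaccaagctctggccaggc
pool J side, Adap1 intron, chr5:139282357-139282643, plus strand: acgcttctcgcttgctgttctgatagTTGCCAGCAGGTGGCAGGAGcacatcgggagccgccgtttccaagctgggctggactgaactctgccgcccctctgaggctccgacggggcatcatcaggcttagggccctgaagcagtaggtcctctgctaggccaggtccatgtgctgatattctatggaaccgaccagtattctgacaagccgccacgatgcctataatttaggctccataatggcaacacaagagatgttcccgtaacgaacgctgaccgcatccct

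The members fell into 3 kinds by their summits, a split made after the values were seen. In 97, the conservative list holds 1 summit for the interval, with 89 members on the pool I side and 8 on the pool J side. Another 36 lay in intervals with 2 summits where the summits paired from the pools were within 100 bp of each other, 32 on the pool I side and 4 on the pool J side. In the last 77, also in intervals with 2 summits, the paired summits were more than 100 bp apart, with 10 on the pool I side and 67 on the pool J side. Intervals with 2 summits held 113 of 210 members (53.8%, interval 46.8 to 60.7) and 381 of 44462 other conservative peaks (0.857%). The kinds differed in distance from the median. Between 1 and 1.25 on the pool I side lay 89 members, of which 81 had 1 summit. Beyond 3 on the pool J side lay 46 members, and in all 46 the paired summits were apart.

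**Figure D1:**
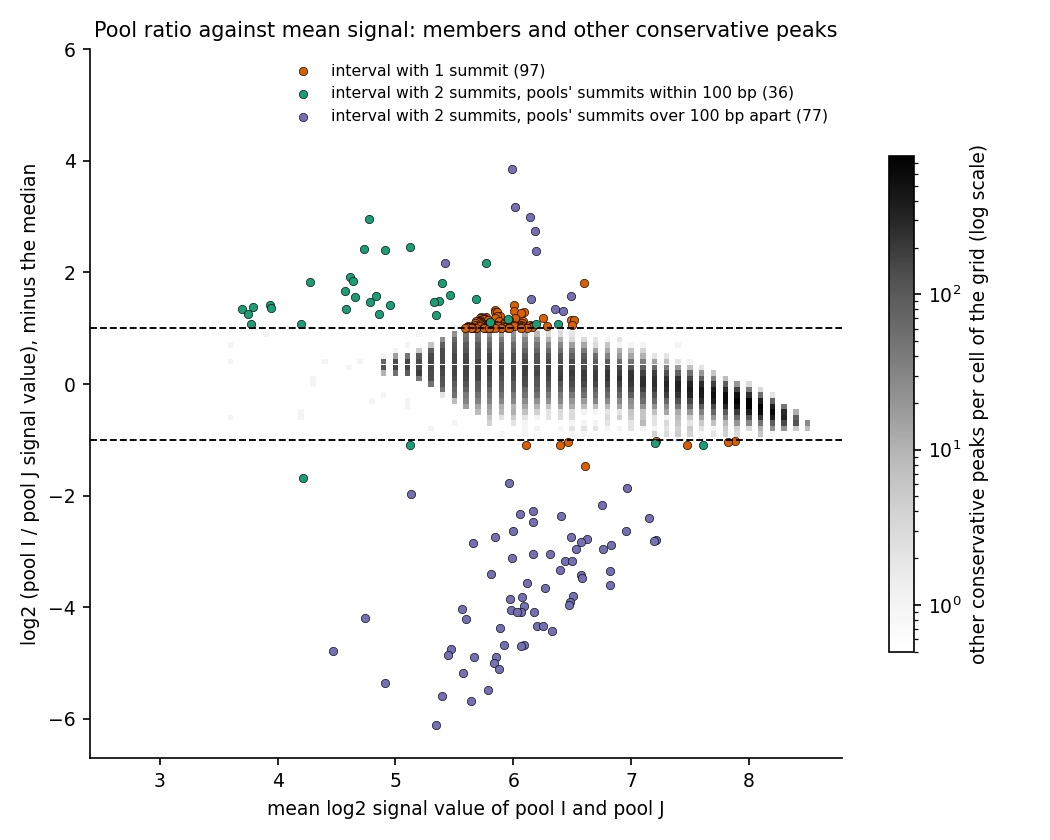
Log2 ratio of the pool I to the pool J signal value minus its median (vertical axis) against the mean log2 signal value of both pools (horizontal axis) for the 210 members, coloured by kind, and the other conservative peaks (grey cells, log colour scale). Dashed lines mark the limits at 1 and -1. Members with 1 summit crowd just above the upper limit, and those with the pools' summits apart reach down to -6.10.

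**Figure D2:**
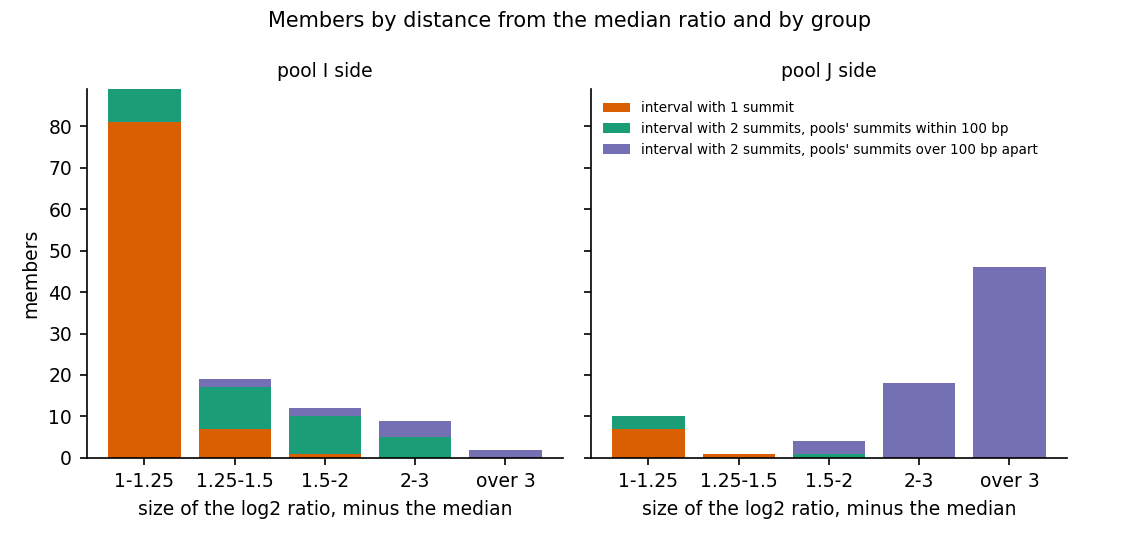
Number of members (vertical axis) by the size of the distance from the median ratio in log2 units (horizontal axis), for the pool I side (left) and the pool J side (right), coloured by kind. Of the 89 members between 1 and 1.25 on the pool I side 81 had 1 summit, and all 46 beyond 3 on the pool J side had the pools' summits over 100 bp apart.

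The 89 pool I side members with 1 summit are those in which both pools were mostly measured at the same place, with paired summits within 50 bp in 79 of them. Their signal value ran from 99.8 to 266 in pool I (median 121), against 23.3 to 43.0 in pool J (median 26.6). The median distance was 1.05 and the largest 1.82. The largest distance and the value of 266 both belonged to the Cntnap1 member described below, whose paired summits were apart. Of the 89, 88 were in the lower 2 quintiles of the conservative list by mean signal. Other 1-summit peaks of the lowest quintile had a median of 72.6 in pool I and 27.2 in pool J. Those of the second quintile had 115 in pool I and 45.8 in pool J. In pool I these members thus stood near the second quintile, and in pool J near the lowest.

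The furthest, in a coding exon of Cntnap1 (chr11:101181095-101181470), the contactin-associated protein of the paranodal axon-glia junction, had 266 in pool I and 35.4 in pool J, a distance of 1.82. Its paired summits lay 200 bp apart, and the list's own value for the peak was 20.7. A pool's peak paired here was also paired with another ranked row. With the strongest overlapping peak of each pool's own list, the distance at Cntnap1 was -0.55. The peak at the Lss promoter, the gene of lanosterol synthase in cholesterol synthesis, had 133 in pool I and 25.0 in pool J, with summits 117 bp apart. At the promoter of Atp13a2, a lysosomal transport ATPase, the values were 133 in pool I and 25.6 in pool J. The promoter of N6amt1, a methyltransferase gene, gave 152 in pool I and 29.6 in pool J. The distances at Atp13a2 and N6amt1 were 1.28 and 1.27. Introns of Alk, a receptor tyrosine kinase, and Nrg1, a ligand of ErbB receptors, gave 132 and 129 in pool I, against 26.6 and 26.1 in pool J. These genes, like others named below from this kind, were picked after their values were seen.

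Promoters, here summits within 1000 bp of an annotated transcript start, held 20 of these 89 members (22.5%, interval 14.3 to 32.6). Among other 1-summit peaks the share was 12.5% in the lowest quintile of mean signal and 13.3% in the second. Beside Lss, Atp13a2 and N6amt1 they included the promoters of Foxj1, a transcription factor of motile cilia, Nbea, a neuronal scaffold of membrane traffic, and Ncstn, the nicastrin subunit of gamma-secretase. At Foxj1 the values were 126 in pool I and 26.1 in pool J, at Nbea 196 in pool I and 41.3 in pool J. Of the 20 promoter peaks 3 held a motif match. No share over other promoter peaks is set beside this count, so it shows no lack of the motif in members. Over all 89, 56 held a match (62.9%, interval 52.0 to 72.9), against 54.9% and 59.6% of other 1-summit peaks in the lowest and second quintiles. The intervals of the members hold both shares, so a difference in motif share was not detectable with 89 peaks. Repeat-masked sequence lay under the summit of 23 of them (25.8%, interval 17.1 to 36.2), against 37.4% and 29.4% in those quintiles.

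The 8 pool J side members with 1 summit were a different set of peaks, in which the pools' values were close before the median was taken off. They ran from 69.1 to 243 in pool I, against 69.2 to 231 in pool J. The peak at the Hook2 promoter, the gene of a microtubule-linked adaptor protein, had 178 in both pools, which is a distance of -1.09. Near Dntt, the terminal transferase gene, the values were 69.1 in pool I and 69.2 in pool J. At the Narf promoter they were 84.2 in pool I and 84.8 in pool J. Tmem184b, with 85.6 in pool I and 111 in pool J, was the furthest at -1.47, and the only one of the 8 whose paired summits were over 100 bp apart. The motif was present in 6 of the 8.

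**Figure D3:**
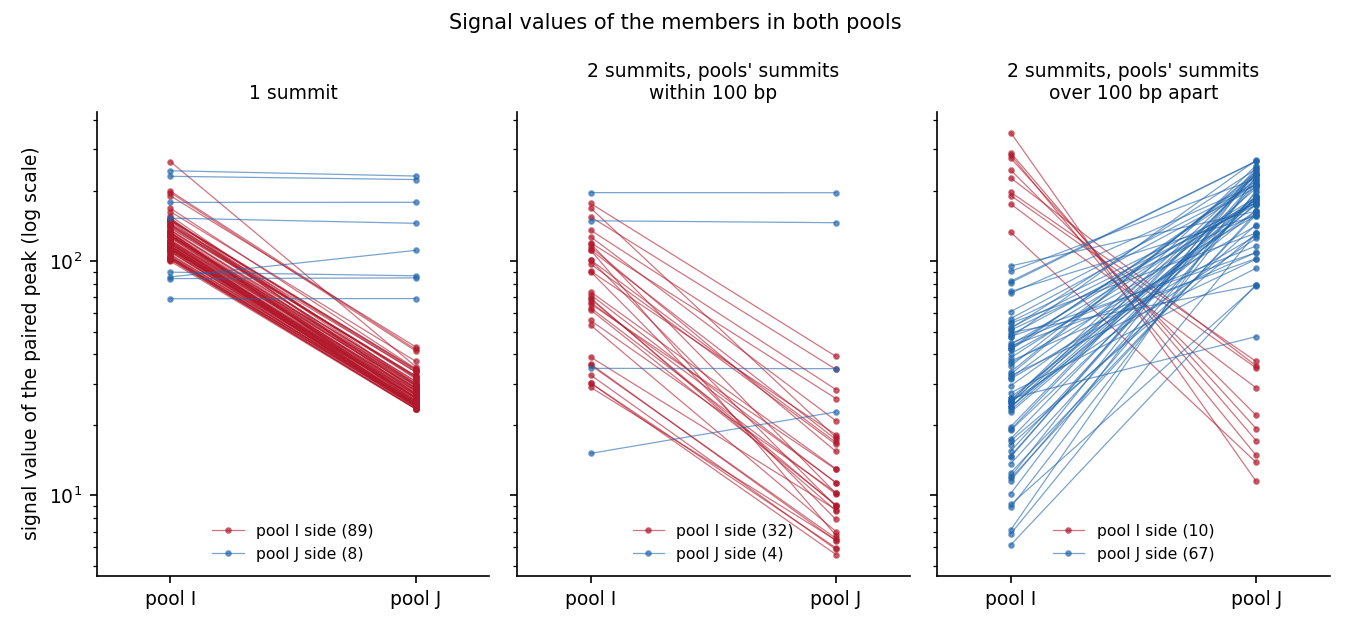
Signal value of each member in pool I and pool J (log scale), joined by a line, for intervals with 1 summit (left), intervals with 2 summits and the pools' summits within 100 bp (middle) and over 100 bp apart (right). Pool I side members with 1 summit have 99.8 to 266 in pool I and 23.3 to 43.0 in pool J, and pool J side members with 1 summit have near equal values in both pools.

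Each pool was also called on its own from 2 inputs, both drawn from the pool's single alignment, which gives a within-pool spread of the signal value. The SD of the log2 difference between inputs in the lowest quintile of mean signal was 0.41 in pool I and 0.74 in pool J. In the highest quintile it was 0.18 in pool I and 0.22 in pool J. Of the 89 pool I side members with 1 summit, 55 had a value in both inputs of both pools at the summit. In all 55, each of the 4 combinations of inputs lay on the pool I side of the median, and in 4 all combinations lay past the limit. On the pool J side 6 of the 8 had all values, and in all 6 the 4 combinations lay on the pool J side, with 1 past the limit in every combination. In 2-summit intervals with the pools' summits together, 5 of the 32 pool I side members had all values. In 4 of these the combinations lay on 1 side, and in 2 all were past the limit. Of the 4 on the pool J side 2 had all values, with 1 on that side in every combination. No member with summits apart had all values. Inputs of a pool share its reads and are not replicates, and they were part of the values that chose the members. Their agreement in side is thus no further support, and no such count of other conservative peaks is set beside it.

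The distance from the median moved with the mean signal over the whole conservative list. Its median was 0.32 in the lowest quintile and 0.24 in the second, then 0.08, -0.17 and -0.42 in the higher quintiles, and Spearman's rho with the mean log2 signal was -0.797 over 44672 peaks of the same libraries. With a running median over 20 bins of mean signal in place of 1 median, 127 peaks (0.284%) were past the limit, 116 of them members. Of the 89 pool I side members with 1 summit 7 were still past it, and of the 8 on the pool J side 6. The peaks of pool J also had a common width among weak peaks: 350 bp was its commonest width, and 87 of the 89 had exactly that width (97.8%). Among other 1-summit peaks 99.9% of the lowest quintile and 96.6% of the second had it. The part of the signal level in the selection of these members was not tested further.

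The 36 members in 2-summit intervals with the pools' summits together were mostly second summits that both pools had called, weaker in pool J than in pool I. Pool I values of the 32 on the pool I side ran from 28.9 to 176 (median 72.9), against 5.59 to 39.2 in pool J (median 10.2). The 5.59 was the lowest pool J value of all conservative peaks, and other 1-summit peaks had at least 17.8 in pool J. The Klf7 promoter peak (chr1:64121731-64122206), at the gene of a Kruppel-like transcription factor, had 111 in pool I and 6.74 in pool J, a distance of 2.95. At the other summit of that interval, 200 bp away, the values were 121 in pool I and 50.1 in pool J, a distance of 0.18. Near Mybl2 the second summit had 119 in pool I and 10.2 in pool J (2.45), and the first had 344 in pool I and 205 in pool J (-0.35). Near Gtf3c3 the second summit had 90.1 in pool I and 7.89 in pool J (2.42), and near Cyld 101 in pool I and 8.98 in pool J (2.40). In each of these the first summit was the stronger in both pools. Taking the strongest overlapping peak from each pool's own list, by which 112 conservative peaks (0.251%) were past the limit, left 0 of the 32 past it, since it replaces a weaker summit by the stronger one beside it. Taking the nearest summit within 50 bp in each pool's own list instead, by which 125 conservative peaks (0.284%) were past the limit, gave a ratio at 30 of the 32. All 30 were past the limit, at distances of 1.08 to 2.96. The paired peaks come from these own lists, so this ratio repeats the values that chose the members and is no second measure. Promoters held 9 of the 32, among them Usf2 (2.16), an E-box binding factor, Khk (1.93), the ketohexokinase gene, and Slc4a8 (1.58), a bicarbonate transporter. Rora (1.52), a nuclear receptor of the circadian clock, had 127 in pool I and 20.8 in pool J at its promoter, where the same pool I peak was paired with both summits. Ezh1 (1.38), a histone methyltransferase gene, had 32.6 in pool I and 5.88 in pool J. Of the 4 on the pool J side, Nlrc5, Ndufa4l2 and Zfp516 lay between -1.06 and -1.09, and the peak near Mvk at -1.68. The Zfp516 member was the first summit of its interval, and every other member in a 2-summit interval was the second.

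The 67 pool J side members with the pools' summits apart held the largest ratios, and in all 67 the ratio set summits about 200 bp apart against each other. In the own ranked list of pool I, each had a summit within 50 bp and at least 2 summits in the interval. In the own list of pool J, each interval held 1 summit, 160 to 216 bp from the member's. The same pool J peak was paired with both rows of all 67 intervals. Their signal values ran from 6.15 to 95.3 in pool I (median 29.4), against 47.6 to 270 in pool J (median 185). The 6.15 was the lowest pool I value of all conservative peaks, and other 1-summit peaks had at least 47.5 in pool I. The Slc7a15 intron member (chr12:8547297-8547723), in a gene of the amino acid transporter family, had 7.13 in pool I and 230 in pool J, a distance of -6.10. The first summit of that interval had 323 in pool I and the same 230 in pool J, a distance of -0.60. In the Adap1 intron the second summit had 10.2 in pool I and 246 in pool J (-5.69), and the first 356 in pool I and 246 in pool J (-0.56). At the Rex1bd promoter the second summit had 8.89 in pool I and 200 in pool J (-5.58), against 320 in pool I and 200 in pool J at the first (-0.41). Near Ninj1 and Gphn the distances were -5.48 and -5.36, with first summits at -0.73 and -0.03. Prr7, Serpinb6a, Mrpl14, Zbtb46 and Zdhhc18 followed, between -5.18 and -4.88.

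The 10 pool I side members with summits apart were the mirror image, with pool I as the pool that had 1 summit. In the own list of pool I each interval held 1 summit, and in that of pool J each member had a summit within 50 bp. The same pool I peak was paired with both rows in all 10. Near Sesn2 (chr4:132514744-132515176), a stress-induced sestrin gene, the second summit had 353 in pool I and 11.5 in pool J (3.85), against 353 in pool I and 214 in pool J at the first (-0.37). The Gpld1 and Mrs2 member had 284 in pool I and 14.8 in pool J (3.17), and that in the Bpifb4 intron 290 in pool I and 17.1 in pool J (2.99). Uchl1os (2.74), Svil (2.39) and Fbxw11 (2.17) completed the 10 highest distances among all members. At these 3 the values were 275, 245 and 133 in pool I, against 19.3, 22.0 and 13.8 in pool J.

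The list's own value for each peak was also set against the sum of both pools' paired values. That sum holds the values that chose the members, so the quotient is a description only. Its median was 0.139 over the 77 members with summits apart (0.0353 to 1.05). Over the 32 pool I side members with summits together it was 0.976 (0.429 to 1.80), a range that overlaps the first, and over the 4 on the pool J side 1.23 (0.945 to 1.73). It was 0.997 over the 97 members with 1 summit, and 0.999 over the other conservative peaks (0.0206 to 1.71). At the other summit of the 113 two-summit intervals with a member it was 0.995, with a lowest value of 0.946. Among members with 1 summit the lowest were Cntnap1 at 0.0686 and Tmem184b at 0.399, whose paired summits were also apart.

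**Figure D4:**
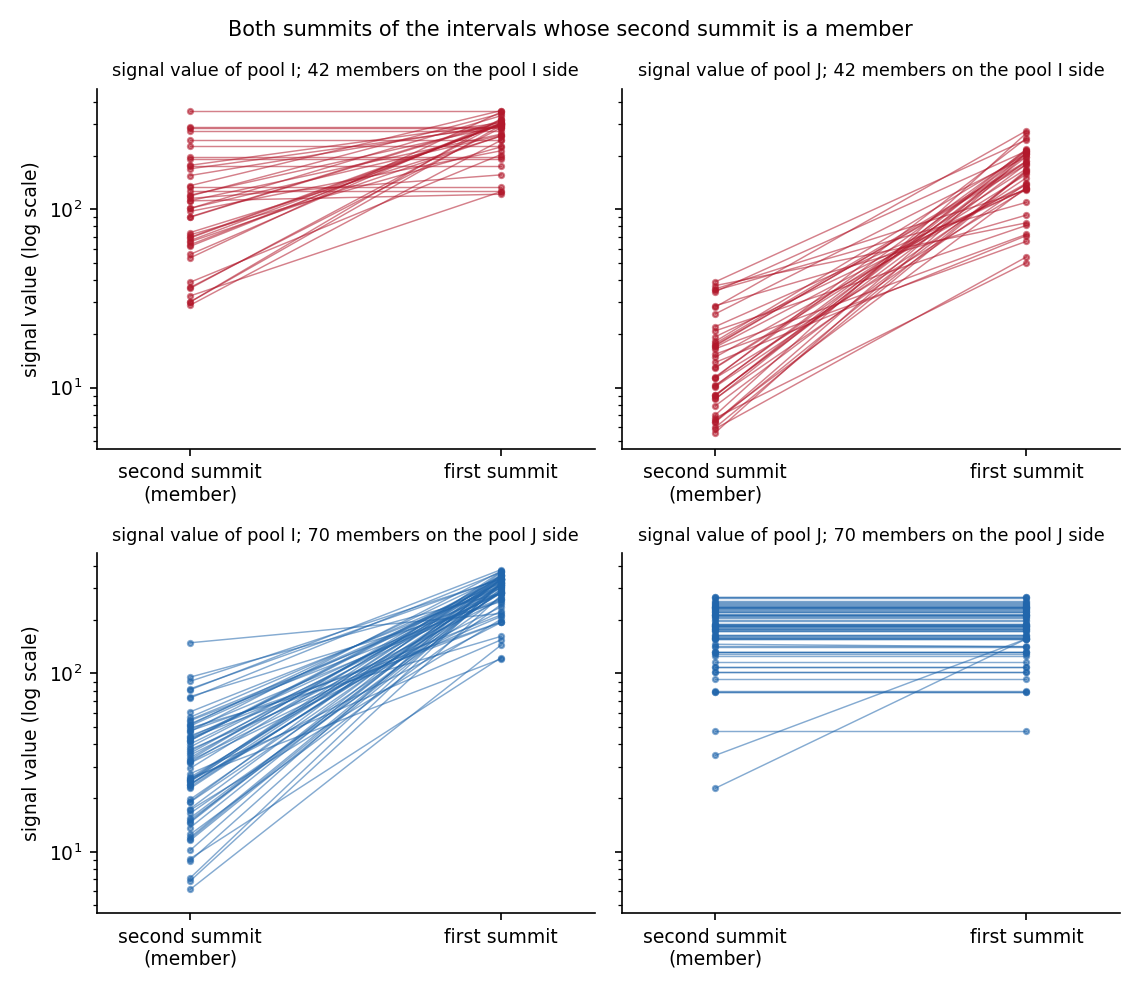
Signal values (log scale) at the second summit, which is the member, and at the first summit of the same interval, joined by a line, in pool I (left) and pool J (right), for 42 members on the pool I side (top) and 70 on the pool J side (bottom). The lower right panel is nearly flat because 67 of the 70 share their pool J peak with the first summit.

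The layout of the 113 two-summit intervals with a member was nearly constant. The second summit lay at the higher coordinate in 112 of them, and 190 to 220 bp from the first in 110, with a median of 203 bp. Motif matches were found at 84 first summits (74.3%) and at 15 second summits (13.3%). In the 134 two-summit intervals without a member, the second summit lay at the higher coordinate in 122 and 190 to 220 bp away in 98, and 56 second summits held a match (41.8%). In the 113 intervals with a member, the first-summit distances had a median of -0.38 and ran from -1.09, the Zfp516 member itself, to 0.47. In the 134 without a member the median was -0.30, with a range of -0.95 to 0.86. Promoters held 32 of the 113 members of this layout (28.3%, interval 20.2 to 37.6). The share was 12.2% of other conservative peaks, which are nearly all 1-summit peaks and are not matched for signal. Among them were Cebpb, Casp2, Hdac10, Tab1 and Kirrel3 on the pool J side. These code for a bZIP transcription factor, a caspase, a histone deacetylase, a kinase-binding adaptor and a synaptic adhesion protein. Repeat-masked sequence lay under 14 of the 113 summits (12.4%), against 19.9% of other conservative peaks, which are not matched for signal. The median masked part of the interval was 7.42% in these 113. Among other 1-summit peaks it was 21.5% in the lowest quintile of mean signal and 7.52% in the highest. Second summits of the intervals without a member are not set beside the promoter or repeat share here.

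**Figure D5:**
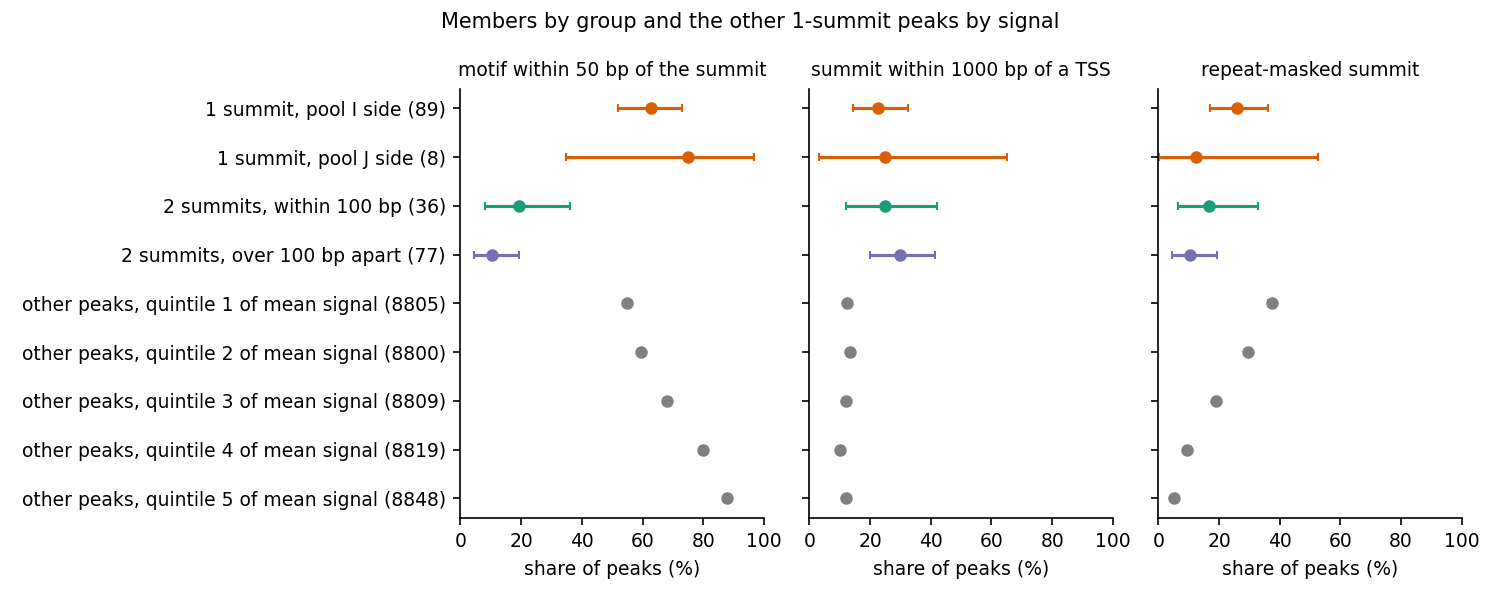
Share of peaks (horizontal axes, %) with a motif match, at a promoter (within 1000 bp of a transcription start site, TSS) and with a repeat-masked summit, for members by kind and for other 1-summit conservative peaks by quintile of mean signal, with numbers of peaks in brackets and 95% exact binomial intervals. Members in 2-summit intervals hold the motif at 19.4% and 10.4%, and other 1-summit peaks at 54.9% or more.

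By position, the members were spread over all chromosomes analysed. Their share of the conservative peaks ran from 0.226% on chromosome 19 to 14 of 1751 on chromosome 13, the highest, and 3 lay on chromosome X (1.43% of members, interval 0.296 to 4.12; 2.75% of other conservative peaks). Over all 210, 54 were at promoters (25.7%, interval 19.9 to 32.2), against 12.2% of other conservative peaks. Another 78 lay in introns, 68 between genes, 7 in coding exons and 3 in untranslated exons. No shares of other conservative peaks are set beside these counts, so they show no trait of the members. Repeat-masked sequence lay under 38 summits (18.1%), against 19.9% of the others. All 210 overlapped a peak of the thresholded list of pool I, and 198 one of pool J (94.3%), against 96.9% of the other conservative peaks. The optimal list held 208 of the 210. The pool I and optimal list counts have no share of other conservative peaks beside them, so they show no trait of the members.

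Pairs of members within 100 kb were found at 4 places, and each pair was on a single side. No expected number of pairs is set beside this count. Near Trim25, an E3 ubiquitin ligase gene of antiviral defence, 2 members with 1 summit were 23537 bp apart, at 1.06 and 1.05. The Cntnap1 member and the Ezh1 promoter member were 45377 bp apart. The pair at Mob2 (-3.18 and -4.86) were 2-summit members with summits apart. The nearest other interval within 100 kb of a pool I side member with 1 summit had a median distance of 0.09 from the median ratio (82 members), with 51 of 82 above 0. Around the 8 on the pool J side it was -0.48, with 3 of 8 above 0. These neighbours lay a median of 12996 bp away on the pool I side, but only 516 bp on the pool J side. Over the conservative list, values above and below 0 are equally common by definition of the median.

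Members in genes of particular groups were counted against all genes. Of all protein-coding genes with a conservative peak in the gene or within 10 kb upstream, 178 of 13454 held one (1.32%). At that share each of the lists without a member would hold fewer than 1 on average, so their zeros show no lack of members. None was found at imprinted genes (0 of 40 with a peak), clustered protocadherins (0 of 49), Hox genes (0 of 26) or neuronal activity-regulated genes (0 of 18). Markers of excitatory (0 of 12) and inhibitory neurons (0 of 13), astrocytes (0 of 9), the oligodendrocyte lineage (0 of 12), endothelium (0 of 6), choroid plexus (0 of 5) and erythroid cells (0 of 4) held none either. Other lists without a member were the X inactivation centre and escape genes (0 of 13), olfactory receptors (0 of 67) and vomeronasal receptors (0 of 8). In the lists with 1 member peak a share above 1.32% also rests on that peak. A single microglial peak counted for 2 genes of 9 (22.2%), C1qb and C1qc, subunits of the complement initiator C1q, with 24.0 in pool I and 163 in pool J (-3.86, summits apart). Among CTCF and cohesin genes 1 of 14 (7.14%) held a member, at the promoter of Rad21, the kleisin subunit of cohesin, with 102 in pool I and 23.6 in pool J (1.02) and no motif match. The heat shock list had 1 of 12 (8.33%), the promoter of the constitutive chaperone Hspa8, with 149 in pool I and 34.5 in pool J (1.02). Clock genes had 1 of 18 (5.56%), Rora, and ribosomal protein genes 1 of 62, Rpl37, with 95.3 in pool I and 163 in pool J (-1.87, summits apart). Zinc finger genes had 3 of 207 (Zfp954, Zfp385a and Zfp516), solute carriers 2 of 278 (Slc7a15 and Slc4a8) and potassium channels 1 of 67 (Kcns1, 1.18). Within 50 kb of antigen receptor segments, looked at after the values were seen, lay 3 members among 136 conservative peaks (2.21%, against 0.470% of all conservative peaks), all with 1 summit, a motif match and pool I side distances of 1.00 to 1.20: beside Trav9n-1, Trav16n and Igkv12-46.

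The limits were not a break in the distribution. The 3 members just inside on the pool I side, near Socs2, Dcakd and Coro2b, had distances of 1.0002, 1.0017 and 1.0023. Just outside, the peaks near Eml6, Col11a1 and Fabp2 had 0.9995, 0.9994 and 0.9979. On the pool J side the peaks near Plekhg6, Lag3 and Itpk1 (-1.0163, -1.0179 and -1.0397) were just inside, and those near Defb7, Sorl1 and Rpl5 (-0.983, -0.9816 and -0.9698) just outside.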

How the data were processed

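The authors deposited peak lists on mm10, called from 1 merged alignment per pool or from both pools, and passed through the irreproducible discovery rate (IDR), which estimates the share of irreproducible peaks. Per the file headers and values, each peak has a score, which is the scaled IDR deposited by the authors, a signal value in the peak caller's own unit, deposited by the authors with no unit stated, and q or IDR values that the authors give as −log10. The conservative list holds peaks with an IDR of at most 0.05 between the pools. The aligner, the peak caller and their versions were not given in the sources used here. The ranked list of both pools gives each peak's paired peak in either pool. The interval taken as that of pool I was identical to a peak of pool I's own ranked list at 44670 of 44672 conservative peaks and to a pool J peak at 0. That taken as pool J matched pool J's list at 44603 and pool I's at 0.

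Distances were computed from the paired signal values as described with the results. Peaks more than 1 log2 unit from the median were members. The members, gene lists and comparisons were chosen with earlier results of these data known. The named genes are those at the 10 highest and 10 lowest distances, 3 either side of each limit, members within 100 kb of each other, and listed genes with a member in the gene or 10 kb upstream. Others are named after their values were seen. Annotation was GENCODE M21 basic, and sequence and repeat masking came from GRCm38.p6. The motif (20 bp, learned in windows of 101 bp without a preset sequence) had a threshold passed by 1% of flanking windows. The motif search and the selection were first run on simulated data with planted cases. For the selection the planted differences lay well past the limit, so this checked its code and not its use on these data. Intervals are exact binomial (95%) and cover counting of peaks only, and peaks are not replicates. The tools were pysam 0.24.0, matplotlib 3.10.9, pandas 2.3.3, SciPy 1.17.1 and numpy 2.4.6, under Python 3.11.15. Lists from the pooled reads before thresholding were not used here, and 2 members are not reported here by name.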

Additional observations from a re-analysis of the deposited data

How the results depend on the processing

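Of the alternatives tried, those with peaks from each pool's own list by nearest summit, without peaks whose pool peak serves both rows, and with 1-summit intervals alone were added after seeing the data. The 210 members became 742 at a log2 limit of 0.8 and 91 at 1.5, 127 with a running median, 97 with 1 summit per interval, 112 with the strongest overlapping peaks, 125 with the nearest summits, 126 without shared pool peaks and 94 in 1-summit intervals alone. The pool I side count of 131 became 586, 23 and 40 under the first 3, 214 with the median of all ranked peaks, and 86 in 1-summit intervals alone. The pool J side count of 79 became 156 at a limit of 0.8, 9 with 1 summit per interval, 8 with the strongest overlapping peaks, 10 with the nearest summits, 11 without shared pool peaks and 8 in 1-summit intervals alone. By construction, the last 5 replace or leave out rows in which a pool's first-summit peak is paired with a second summit.

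The motif share of 36.7% became 50.7% and 8.79% at limits of 0.8 and 1.5, 16.5% with the running median, 63.9% with 1 summit per interval, 60.7% with the strongest and 54.4% with the nearest own peaks, 53.2% without shared pool peaks, 63.8% in 1-summit intervals alone, and 7.62% at the stricter score (24.7% of other conservative peaks). The promoter share of 25.7% became 19.5% at a limit of 0.8, and 36.7% within 5000 bp (27.6% of the others). The repeat share of 18.1% became 25.7% and 11.0% at limits of 0.8 and 1.5, 11.8% with the running median, and 11.9% when over 50% of the interval had to be masked (15.4% of the others). The chromosome X share stayed within the interval of its 3 peaks under all 10 alternatives run. An IDR of at most 0.01 moved none of the 3 counts by more than 1.5 times and none of the 4 shares beyond its interval, with 2.21% on chromosome X against 1.43%.

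The read depth is unknown, and each pool has 1 value per peak, so leaving out a library was not possible and no difference between the pools has a replicate error. No paired analysis was possible because the 2 libraries of a pool share an alignment and no test was run between samples. Sequence was read from the C57BL/6J reference, although the mice carry a CAST/EiJ genome too.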
